A study of Arabidopsis thaliana with 4 samples.

Results

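The SMXL family of Arabidopsis thaliana consists of SMAX1 (AT5G57710), SMXL2 (AT4G30350), SMXL3 (AT3G52490), SMXL4 (AT4G29920), SMXL5 (AT5G57130), SMXL6 (AT1G07200), SMXL7 (AT2G29970) and SMXL8 (AT2G40130). All 8 were taken by locus identifier out of 33602 loci of a table of small RNA reads. The family was chosen by the read counts themselves, since SMXL5 had a very large fold between ein5-1 ski2-3 and Col-0 in an earlier analysis of the same table. The family's folds between ein5-1 ski2-3 and Col-0, and between the triple and the decay mutant, are therefore descriptions of these libraries.

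The libraries were made from the RNA fraction shorter than 200 nt of the aerial parts of plants grown for 18 days, with 1 library for each of 4 genotypes. All were grown at 22 °C with 16 h of light and 8 h of dark. Col-0 is the wild type. The line ein5-1 ski2-3, called the decay mutant below, carries mutations in EIN5, an exonuclease that degrades uncapped mRNA from the 5′ end in the cytoplasm, and in SKI2, a helicase that feeds mRNA to the cytoplasmic exosome for decay from the 3′ end. The line rdr6-11 is mutated in RDR6, a polymerase that copies single-stranded transcripts, and Dicer-like enzymes cut the product into small interfering RNAs (siRNAs). The line rdr6-11 ein5-1 ski2-3, called the triple mutant, combines all these mutations. The labels give no number of plants per library. Since each genotype is a single library, differences cannot be set against a replicate spread and were not tested. Each interval below is a 95% counting interval, which covers counting error only.

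SMXL proteins are distant relatives of the Clp ATPase chaperones and act as repressors in the nucleus. SMAX1 and SMXL2 are removed when the receptor KAI2 is activated, as it is by smoke-derived karrikins, and SMXL6, SMXL7 and SMXL8 are removed when the receptor D14 binds strigolactone, a hormone that limits shoot branching. Both receptors work with the F-box protein MAX2. SMXL3, SMXL4 and SMXL5 are not targets of these receptors and are needed to form phloem, the tissue that transports sugars. Small RNAs made from an mRNA through RDR6 can silence further transcripts of the same gene, and cytoplasmic RNA decay competes with RDR6 for aberrant transcripts.

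The table held 621515 reads in the decay mutant and between 808276 and 878632 in the other libraries, so that 1 read was worth 1.14 to 1.61 RPM, reads scaled to the library's total in the table. The mutated genes themselves had too few reads to check the labels, between 0 and 4 in each library for EIN5, SKI2 and RDR6. The trans-acting siRNA (TAS) loci, which need RDR6, took 7.14% of the Col-0 library and 2.50% of the decay mutant's, but 0.0126% and 0.0518% of the rdr6-11 and triple mutant libraries. The table does not give read size or strand, so siRNAs and fragments of longer RNA were counted together. The authors' lengths of loci were shared by Col-0 with the decay mutant and by rdr6-11 with the triple mutant. Between Col-0 and rdr6-11 they were unequal at 445 of the 12348 loci where both had reads. A difference in handling between these library pairs cannot be told apart from the RDR6 genotype. The length of each SMXL gene was the same wherever it could be recovered.

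Small RNA reads at the SMXL genes were rare in wild-type plants and abundant in the decay mutant, and nearly all of the gain was at SMXL5, SMXL4 and SMXL7. Together the 8 genes held 20 reads in Col-0, 4393 in the decay mutant, 16 in rdr6-11 plants and 65 in the triple mutant. Scaled to library totals, these were 24.7, 7068, 18.2 and 74.1 RPM. The family's share of all reads was 0.707% in the decay mutant, and the summed level was 286-fold that of Col-0 (185 to 468). With RDR6 also mutated it was 95.4-fold lower (74.7 to 124). The triple mutant was still 2.99-fold above Col-0 (1.79 to 5.22) and 4.07-fold above rdr6-11 (2.33 to 7.53).

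**Figure D1:**
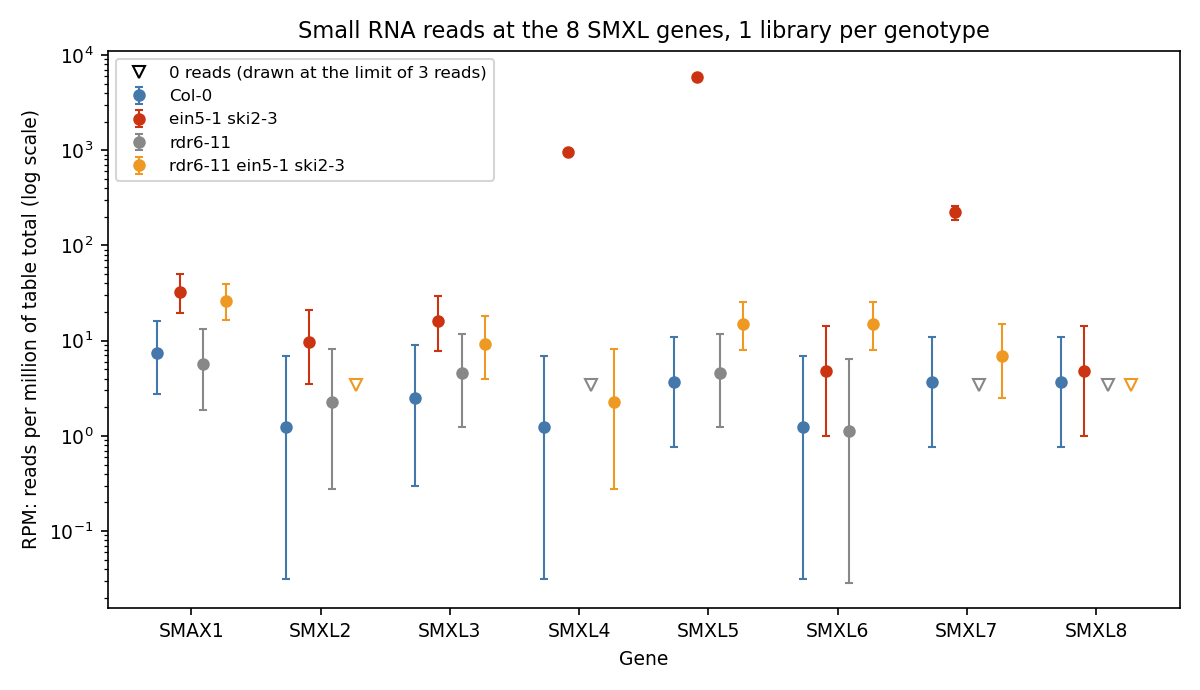
RPM (log axis) at each SMXL gene in the 4 libraries; bars are 95% Poisson intervals and open triangles are libraries with 0 reads, drawn at the level of 3 reads. SMXL5, SMXL4 and SMXL7 stand at 5820, 959 and 222 RPM in the decay mutant, and no other point of the family lies above 32.2 RPM.

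SMXL5, one of the phloem regulators, held 3 reads in Col-0, 3617 in the decay mutant, 4 in rdr6-11 plants and 13 in the triple mutant. Its level in the decay mutant was 5820 RPM (5632 to 6012), the highest of 26700 protein-coding loci in that library and rank 18 among loci of every class. In the other 3 libraries it lay between 3.71 and 14.8 RPM. The decay mutant was 1568-fold above Col-0 (536 to 7607) and the triple mutant 393-fold below the decay mutant (229 to 739).

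SMXL4, its closest relative in the family, held 1, 596, 0 and 2 reads in Col-0, the decay mutant, rdr6-11 and the triple mutant. The level in the decay mutant was 959 RPM (883 to 1039), rank 21 among protein-coding loci. Its 95% Poisson interval in rdr6-11, where it had 0 reads, reached 4.20 RPM, and the level of 3 reads there is 3.41 RPM. The fold over Col-0, 775 (139 to 30665), has a wide interval because it rests on a single Col-0 read, and it overlaps that of SMXL5. The fold between decay and triple mutant was 421 (116 to 3483).

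SMXL7, a target of D14, held 3, 138, 0 and 6 reads in the same order. It reached 222 RPM (187 to 262) in the decay mutant, rank 96 among protein-coding loci. That was 59.8-fold above Col-0 (20.05 to 294) and 32.5-fold above the triple mutant (14.5 to 90.0). The interval of the SMXL7 fold over Col-0 ends below the start of that of SMXL5, and overlaps that of SMXL4. In each of these 3 genes the decay mutant stood far above the other 3 libraries, which lay at 13 reads or fewer.

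Calls of higher or lower required a fold of 4 or more after adding 1 read to each count, and 50 or more reads in the library that was higher. By this rule 3 of 8 SMXL genes were higher and 0 lower in the decay mutant when set against Col-0, where 0.521% and 0.176% of all loci were. These 3 reached 50 reads in the decay mutant alone, the library whose fold led to the choice of the family. They were also the members called lower in the triple mutant when set against the decay mutant, as were 0.312% of all loci. No member was called higher in that comparison, in which 0.292% of all loci were. Both comparisons share the decay mutant library. The member just inside the minimum was SMXL7 with 138 reads, and the member just outside was SMAX1 with 20. SMAX1 also fell short of 4-fold against Col-0, with a log2 fold of 1.96 after adding 1 read.

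The other 5 members had few reads in each library. SMAX1, which represses KAI2-dependent responses with SMXL2, held 6, 20, 5 and 23 reads in Col-0, the decay mutant, rdr6-11 and the triple mutant. Relative to Col-0 the decay mutant was 4.33-fold higher (1.68 to 13.2) and relative to rdr6-11 the triple mutant was 4.61-fold higher (1.71 to 15.5). The triple and decay mutants did not differ beyond counting error (0.814-fold, 0.428 to 1.56). Both libraries with the decay mutations thus stood above both without them.

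SMXL3, the remaining phloem regulator, held 2, 10, 4 and 8 reads. Its fold in the decay mutant over Col-0 was 6.50 (1.39 to 61.0), and the triple mutant was at 0.567 of the decay mutant (0.194 to 1.59). SMXL2 held 1, 6, 2 and 0 reads, with a fold of 7.80 over Col-0 whose interval includes 1 (0.947 to 359). With 0 reads in the triple mutant, its ratio to the decay mutant had an interval that ended at 0.601. SMXL8, a D14 target, held 3, 3, 0 and 0 reads.

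SMXL6 had its highest count in the triple mutant. It held 1, 3, 1 and 13 reads, which is 14.8 RPM (7.89 to 25.3) in the triple mutant, 13.0-fold above rdr6-11 (1.95 to 553) and 12.0-fold above Col-0 (1.801 to 509). The difference from the decay mutant, 3.07-fold, was within counting error (0.843 to 16.8).

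Summed over these 5 genes the reads were 13, 42, 12 and 44, or 16.1, 67.6, 13.7 and 50.1 RPM. With the decay mutations the sum was 4.20-fold higher where RDR6 was intact (2.21 to 8.53) and 3.67-fold higher where it was mutated (1.91 to 7.64). Between the decay and the triple mutant the sum differed by 1.35-fold, within counting error (0.862 to 2.11). SMAX1 supplied 20 of the 42 and 23 of the 44 reads. SMXL2 went from 6 reads to 0 and SMXL6 from 3 to 13, so the sum does not describe each gene. For scale, the 3130 protein-coding loci that reached 10 reads in some library had median log2 folds of 1.27 with RDR6 intact and 1.42 with it mutated. Over all 5402 loci that reached 10 reads, of every class, the medians were 0.254 and 0.417. Loci could pass this filter through a library with the decay mutations alone, which can raise such medians. The log2 folds of the sum were 2.00 and 1.79. The sum of the 5 genes, SMXL5, SMXL4 and SMXL7 all differed in the same direction as these medians in both RDR6 backgrounds. The size differed at SMXL5, which had a log2 fold of 10.20 with RDR6 intact and 1.49 with it mutated. For SMXL4 these were 8.60 and 1.59, and for SMXL7 5.50 and 2.81, each with the pseudocount. With RDR6 mutated, SMXL4 and SMXL7 rest on 2 and 6 reads in the triple mutant against 0 in rdr6-11. Their values there depend on the pseudocount. The counting intervals have no upper bound and overlap those with RDR6 intact, so a difference in size is not shown for SMXL4 and SMXL7.

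**Figure D2:**
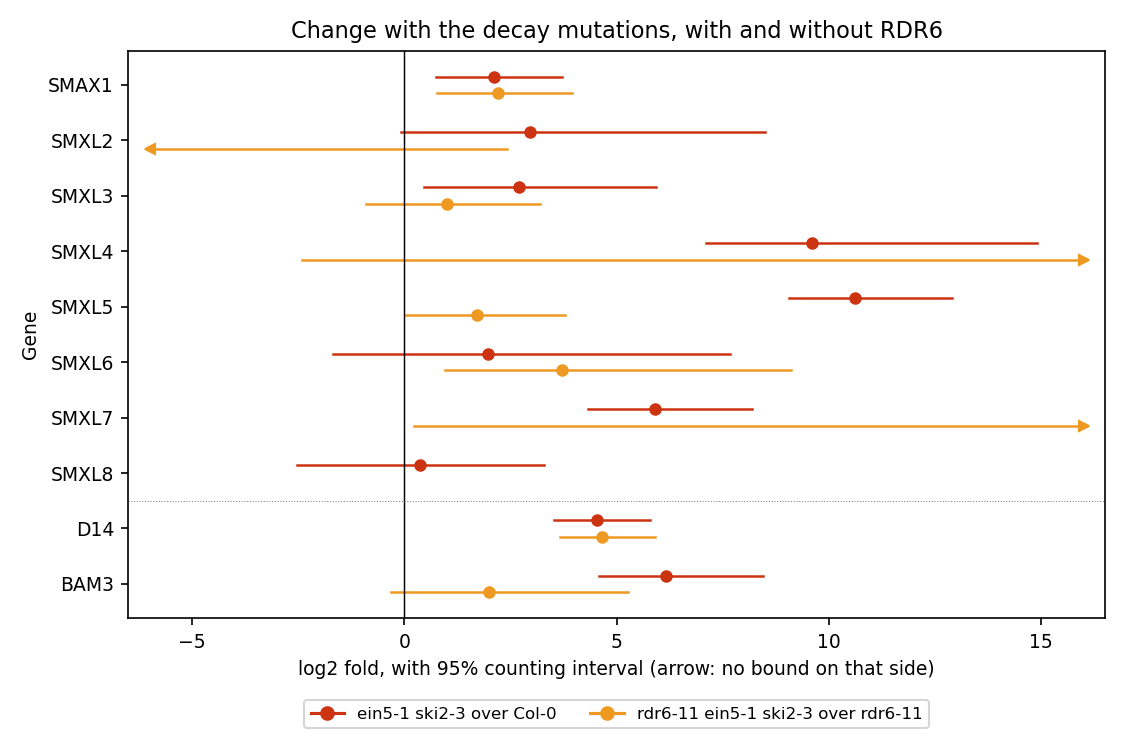
Change in reads with the ein5-1 ski2-3 mutations on a log2 scale, without a pseudocount, in plants with RDR6 (ein5-1 ski2-3 over Col-0) and without it (triple mutant over rdr6-11); lines are 95% counting intervals, arrows mark intervals with no bound on that side, and SMXL8 has no value without RDR6. The intervals of the 2 backgrounds do not overlap for SMXL5, while those of SMAX1 and of the strigolactone receptor gene D14 nearly coincide.

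With EIN5 and SKI2 intact, mutation of RDR6 made no difference beyond counting error at any of the 8 genes. The sum of 20 reads in Col-0 and 16 in rdr6-11 gave a ratio of 0.736 (0.357 to 1.49), and 0 of 8 members were called, against 0.0655% of all loci called lower and 0.0327% called higher. No member was called between the triple mutant and rdr6-11, where 0.351% of loci were called higher and 0.00893% lower, or between the triple mutant and Col-0, where 0.548% were higher and 0.11% lower. At these depths no member held the 50 reads that a call needs in any of the 3 comparisons, so the counts of 0 follow from the minimum.

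The make-up of the family's reads differed accordingly. SMXL5 supplied 82.3% of the family's reads in the decay mutant (81.2 to 83.5), SMXL4 13.6% (12.6 to 14.6) and SMXL7 3.14% (2.65 to 3.70), and the other 5 genes supplied the rest. SMAX1 was the leading gene in the remaining libraries, with 30.0% in Col-0 (11.9 to 54.3), 31.2% in rdr6-11 (11.0 to 58.7) and 35.4% in the triple mutant (23.9 to 48.2). SMXL5 took 15.0% in Col-0 (3.21 to 37.9). These shares rest on 20, 16 and 65 reads, and their intervals overlap.

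**Figure D3:**
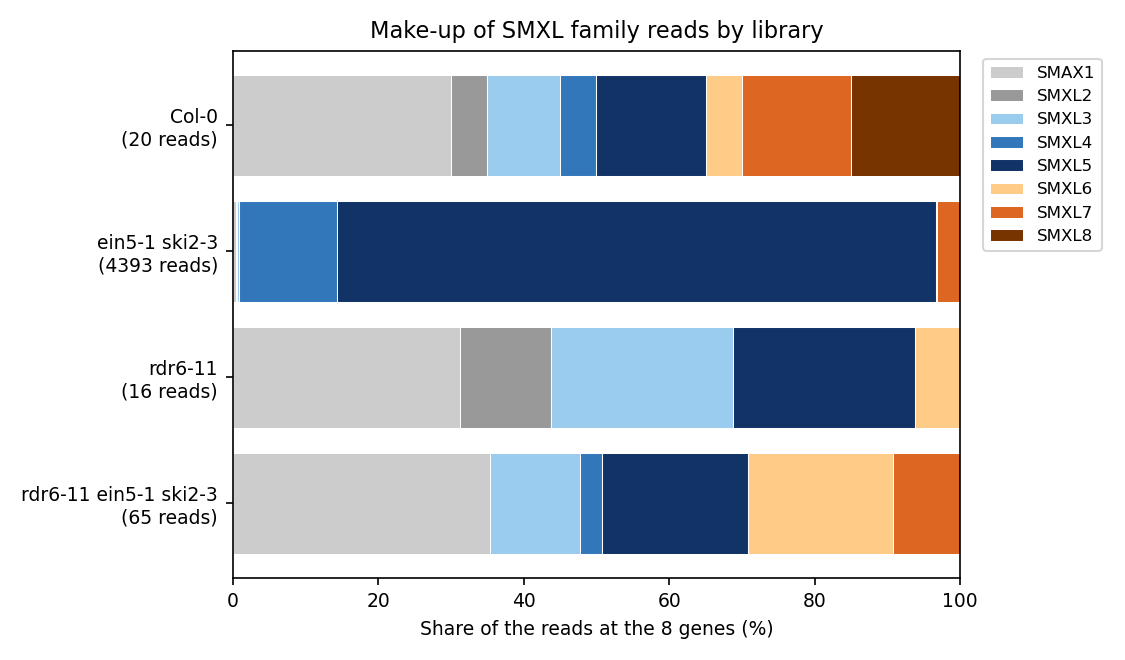
Share of the reads at the 8 SMXL genes taken by each gene, as a percentage of the family's reads in each library. SMXL5 fills 82.3% of the bar of the decay mutant (4393 reads), and the bars of the other libraries rest on 16 to 65 reads.

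To compare levels between the genes, reads were divided by the authors' locus lengths, from 3220 nt for SMXL3 to 4588 nt for SMXL5. In the decay mutant the order was SMXL5, SMXL4, SMXL7, SMAX1, SMXL3, SMXL2, SMXL8 and SMXL6. SMXL5 stood at 1268 RPM per kilobase (1227 to 1310), 4.28 times the level of SMXL4 (3.92 to 4.67). This ratio depended on the length used, and was 5.85 (5.36 to 6.39) with annotated mRNA lengths. SMXL4 stood at 297, which was 4.75 times SMXL7 (3.94 to 5.75), and SMXL7 at 62.5, which was 6.91 times SMAX1 (4.31 to 11.7). From SMAX1 downward no gene differed beyond counting error from the next in the order. The gap between SMXL5 and SMXL3, both phloem regulators, was 254-fold (138 to 530), and that between SMXL7 and SMXL6, its closest relative, was 49.6-fold (16.6 to 243). Per-length levels thus differed widely within each of these functional classes.

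**Figure D4:**
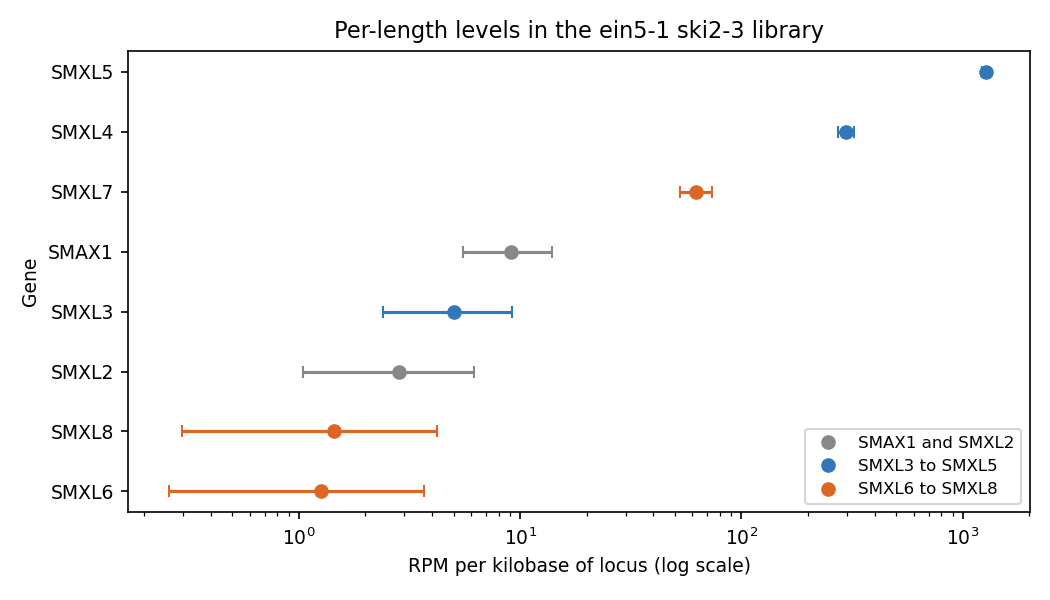
RPM per kilobase of locus (log axis) at each SMXL gene in the ein5-1 ski2-3 library, with 95% Poisson intervals; colours give the functional class. SMXL5, SMXL4 and SMXL7 lie at 1268, 297 and 62.5, and the highest of the other genes, SMAX1, lies at 9.04.

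Sequence similarity did not put SMXL7 beside the phloem regulators. In the TAIR10.1 annotation, matched by locus identifier, the coding sequences of SMXL6 and SMXL7 were identical at 74.6% of aligned positions, those of SMAX1 and SMXL2 at 69.2% and those of SMXL4 and SMXL5 at 66.8%. SMXL3 was identical to SMXL4 at 62.9% and to SMXL5 at 62.1%, and SMXL7 to these at 56.6% each. The closest relative of SMXL7 had 3 reads in the decay mutant and that of SMXL5 had 596.

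Few stretches of the gaining genes' mRNAs were shared with their relatives at a length of 21 nt. The length of the reads themselves is not in the table, and shorter reads could match more places. Of the 3631 sequences of 21 nt in the SMXL5 mRNA, 23 (0.633%) occurred elsewhere in the genome on either strand, and 13 occurred in the mRNA of another family member. For SMXL4 these were 22 of 3499 and 11, and for SMXL7 7 of 3667 and 0. The longest identical stretch between SMXL4 and SMXL5 was 15 nt. SMXL2 had the longest in the family, 33 nt with SMXL5 and 25 nt with SMXL4, and SMXL3 shared 26 nt with SMXL4. How the authors assigned reads that match several places is not given in the sources used here, so the 6 reads of SMXL2 and the 10 of SMXL3 in the decay mutant cannot be told apart from reads of SMXL4 or SMXL5 that fell in these stretches.

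Genes adjoining SMXL4, SMXL5 and SMXL7 had few reads. The loci on either side of SMXL5, AT5G57126 and AT5G57140, held 9 and 1 reads in the decay mutant, the same counts as in Col-0. Those beside SMXL4, AT4G29910 and AT4G29930, held 0, and those beside SMXL7, AT2G29960 and AT2G29980, held 0 and 6. No annotated gene overlapped SMXL4, SMXL5 or SMXL7, and 1 gene, AT2G09115, overlapped SMXL8. The mRNAs of the 3 gaining genes had 3 or 4 exons and a GC content of 40.7% to 42.3%, and those of the other 5 had 3 or 4 exons and 42.2% to 43.7%.

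Among 19 genes of strigolactone and karrikin synthesis and signalling, 4 reached 10 reads in some library. D14 (AT3G03990), the strigolactone receptor that triggers removal of SMXL6 to SMXL8, held 8 reads in Col-0, 143 in the decay mutant, 8 in rdr6-11 plants and 203 in the triple mutant. It was called higher with the decay mutations both with RDR6 (23.2-fold, 11.5 to 54.9) and without it (25.4-fold, 12.7 to 59.6). The decay and triple mutants were at 230 and 231 RPM, a ratio of 1.005 (0.808 to 1.25). By the authors' RPKM, which also scales to locus length, D14 and SMXL7 stood at 197 and 61.0 in the decay mutant. In the triple mutant they stood at 199 and 1.88. KAI2 (AT4G37470) held 5, 18, 2 and 15 reads and MAX2 (AT2G42620) 3, 10, 2 and 14, and neither was called. Of the 19 genes 1 was called higher and 0 lower in the decay mutant over Col-0, where 0.521% and 0.176% of all loci were. Between the triple and the decay mutant 0 were called, where 0.292% of all loci were higher and 0.312% lower. D14 was the list's 1 gene with 50 reads in either library of these comparisons, so no other could be called.

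In a list of 16 genes of phloem formation and function, 3 reached 10 reads in some library. BAM3 (AT4G20270), a receptor kinase that restrains protophloem differentiation in response to the CLE45 peptide, held 3, 165, 2 and 8 reads. Its level in the decay mutant was 71.5-fold that in Col-0 (24.1 to 350) and 29.1-fold that in the triple mutant (14.4 to 68.6), and BAM3 was the list member called in both of these comparisons. OPS (AT3G09070), a polarly localised protein of phloem cells, held 1, 17, 1 and 5 reads, and the sucrose transporter gene SUC2 (AT1G22710) held 2, 7, 1 and 13. Of all loci, 0.521% were called higher in the decay mutant over Col-0 and 0.312% lower in the triple over the decay mutant. BAM3 was also the list's 1 gene with 50 reads in these libraries, so no other could be called. Of 6 Clp ATPase genes related to the family, 0 were called in any comparison. The share of all loci called in a comparison and direction lay between 0.00893% and 0.548%. At most 1 of the 6 reached 50 reads in a comparison, and 0 did in that of the decay mutant with Col-0, so these counts follow largely from the minimum. The most abundant, CLPC1 (AT5G50920), a chaperone of the chloroplast, held 34, 38, 33 and 83 reads, and its difference between decay mutant and Col-0 was within counting error (1.45-fold, 0.891 to 2.38).

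Loci whose profile over the 4 libraries was most like that of the gaining genes were found by the Euclidean distance between log2 RPM profiles centred on their means, with a pseudocount of 1 read, among the 873 other loci that reached 50 reads in some library. The nearest to SMXL5 were the cytokinin response factor gene CRF2 (distance 1.08), SMXL4 (1.23), the flavin monooxygenase gene FMO (1.36), the auxin-conjugating enzyme gene DFL1 (1.48) and the auxin response factor gene ARF6 (1.66). The nearest to SMXL4 were DFL1 (0.566), SMXL5 (1.23), FMO (1.29), AT2G39870 (1.37) and CRF2 (1.58). SMXL4 and SMXL5 were thus each other's rank 2.

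SMXL7 was nearest to other loci. They were AT5G05250 (distance 0.193), the trehalose-6-phosphate phosphatase gene TPPH (0.251), the cell-wall enzyme gene XTH9 (0.494), the arabinogalactan protein gene AGP31 (1.14) and BAM3 (1.22). TPPH held 3, 114, 0 and 5 reads, close to the 3, 138, 0 and 6 of SMXL7. From SMXL7, SMXL4 was at rank 52 and SMXL5 at rank 113. In the other direction, SMXL7 was at rank 14 from SMXL4 and rank 22 from SMXL5. With 4 points per profile, and the decay mutant high in each of these loci, the distances describe mainly the size of the difference in that library.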

How the data were processed

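The deposited table holds, per the file headers, the authors' count of reads per locus and the authors' RPKM, which scales reads to locus length and library size, for 4 libraries. Per the submitters' processing notes, CASAVA 1.8.2, BWA and the build TAIR9 were used, with roles not stated. Whether reads were trimmed or counted by strand is not given in the sources used here.

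Each count was divided by the sum of its library's column (RPM). Locus lengths and library totals were recovered by dividing counts by RPKM. Intervals are exact: conditional binomial for folds, Poisson for levels and Clopper-Pearson for shares. Reads are not independent molecules. Printed folds carry no pseudocount, and log2 folds carry 1 read.

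Names, biotypes, mRNAs and neighbouring genes came from the TAIR10.1 annotation and genome, in which 32835 loci matched by identifier. Its build differs from the table's, so no coordinates or sequences are printed. The mRNA with the longest coding sequence was used for each gene. Coding sequences were aligned with Biopython 1.88, globally (match 2, mismatch -1, gap opening -5, gap extension -1).

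The text names all 8 members, list members called in any comparison or among the 3 of most reads in their list, and the 5 loci of nearest profile to each member with 50 reads. The members and lists were chosen with earlier results of these data known. Alternatives used other scalings (edgeR 4.0.16 for TMM), minimums, folds and pseudocounts. The procedure was tested on simulated data with counting error alone, in which only loci with many reads were changed. It was not tested at counts as low as those of the SMXL genes in Col-0, or with differences between replicates.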

Additional observations from a re-analysis of the deposited data

Results flagged for a closer look

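Members that reached 10 reads in some library were screened for effects of opposite sign. At 3 of these 6 the log2 fold for loss of RDR6, with a pseudocount of 1 read, had opposite signs with and without the decay mutations. The difference was not tested, and in each case the fold of rdr6-11 over Col-0 was within counting error. SMXL5 stood at 0.20 in rdr6-11 over Col-0 (4 and 3 reads) and at -8.51 in the triple over the decay mutant (13 and 3617 reads). SMXL3 stood at 0.62 (4 and 2 reads) and -0.79 (8 and 10 reads). SMXL6 stood at -0.12 (1 read in each library) and 1.31 (13 and 3 reads). For SMXL3 and SMXL6 the fold between triple and decay mutant was within counting error as well. SMXL2, which did not reach 10 reads, also had opposite signs, at 0.46 (2 and 1 reads) and -3.31 (0 and 6 reads).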

How the results depend on the processing

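SMXL4, SMXL5 and SMXL7 were the members called higher in the decay mutant over Col-0, and lower in the triple over the decay mutant, under each alternative scaling, pseudocount, fold and minimum except without a minimum. Without a minimum 5 members were higher in the former (SMXL2 and SMXL3 in addition) and 5 lower in the latter (SMXL2 and SMXL8 in addition). In the comparisons with no calls, dropping the minimum gave 2 lower in rdr6-11 over Col-0, 3 higher in the triple mutant over rdr6-11, and 1 higher and 1 lower in the triple mutant over Col-0. A minimum of 20 reads gave 1 higher in the triple mutant over rdr6-11, SMAX1. The lower minimums admit such members by construction. No direction of a called member was reversed.

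Over 7 alternatives the log2 fold of SMXL5 lay between 9.20 and 10.21 in the decay mutant over Col-0 and between -8.56 and -7.73 in the triple over the decay mutant. For SMXL4 the ranges were 7.03 to 8.61 and -8.18 to -6.92, and for SMXL7 4.54 to 5.51 and -4.86 to -4.03. The scalings shifted all folds of the decay mutant over Col-0 by -0.54 to 0.01, and those of the triple over the decay mutant by -0.05 to 0.78, the latter with scaling to reads at miRNA genes. The totals without organelle loci and those without the 8 SMXL genes were chosen after seeing the data. Divided by TAIR10.1 mRNA lengths, SMXL5 was 5.85 times SMXL4 (5.36 to 6.39) in the decay mutant. That interval does not overlap the one found with the authors' locus lengths. No paired analysis was possible because each genotype has 1 library. Depth limits the 5 members with few reads, since a fold from 1 to 3 reads has an interval that spans a factor of more than 10.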
